A study of Rattus norvegicus with 24 samples.

Results

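The eukaryotic translation initiation factors (eIFs) are the proteins that bring messenger RNA, the ribosomal subunits and the initiator tRNA together, and their transcripts were examined in the whole blood of rats. The members were all genes on the array whose name begins with Eif and a digit from 1 to 6, and each was read by the probe with the brightest Cy3 signal. This gave 53 of the 25885 gene names on the array, measured by 68 of its 30367 probes, and 13 of the genes had more than 1 probe. The 8-week-old male Sprague-Dawley rats fell into 6 groups with 4 arrays each. C-G0 and LPS-G0 were fed a semi-synthetic control diet, C-G1 and LPS-G1 the same kind of feed with 1% oat beta-glucan of high molecular weight, and C-G2 and LPS-G2 with 1% oat beta-glucan of low molecular weight, for 6 weeks. The LPS groups were injected in the tail vein with lipopolysaccharide of Escherichia coli at 10 mg/kg, 2 times 7 days apart, to induce enteritis, and the C groups with saline. Every array carried the RNA of a single rat in the Cy3 channel and the same pooled reference RNA in the Cy5 channel, so each value is the log2 ratio of rat over reference, and it orders the arrays for a gene but not the genes among themselves. In whole blood, fewer cells of a type and less RNA per cell cannot be told apart.

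Initiation in the cytosol begins with the ternary complex, in which eIF2 holds the initiator tRNA and GTP. eIF2B recharges eIF2 with GTP, and 4 kinases (Eif2ak1 to Eif2ak4) can block this step by phosphorylating the alpha subunit of eIF2. The large eIF3 complex loads the small ribosomal subunit, the eIF4 proteins bind the cap of the mRNA and unwind its leader, and eIF1, eIF1A, eIF5 and eIF5B pick the start codon and join the subunits. In circulating red cell precursors, Eif2ak1, the heme-regulated kinase, is known to match globin synthesis to the supply of heme.

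The blood markers that define the tissue were present. Of the 15 defining genes of red cells, lymphocytes, neutrophils, monocytes and platelets, Cd14 was above background on 16 of 24 arrays and the others on 24 of 24. C-G0 replicate 1 stood apart from its group: of the 45 initiation factors tested on the 16 arrays of C-G0 and the 3 LPS groups, it gave the lowest of the 4 C-G0 values for 31. Over probes bright in both channels, the spread of Cy3 signals about each probe's mean was largest on C-G1 replicate 2 (0.801). It was next largest on C-G0 replicate 1 (0.772). For LPS-G0 replicates 3 and 4 the labels conflict, with a title of the LPS group beside a control entry for inflammation, and the title was followed. The counts and medians of comparisons that hold C-G0 replicate 1 or LPS-G0 replicates 3 and 4 are given with and without them. Fits without C-G1 replicate 2 enter only the ranges over single arrays left out.

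The sequences of the probes behind the main results are shown first, since they fix which part of a transcript was read. Transcripts of Eif1b and Eif2d passed the test in LPS-G1 vs. LPS-G0. The Eif1b probe can be read without a stop codon in 1 frame, and its 60 bases are spread over 327 positions of the rn4 assembly (chr8:125500937-125501263), as when a probe crosses an intron. The Eif2d probe (chr13:44118491-44118550) ends with the stop codon in capitals.
Eif1b: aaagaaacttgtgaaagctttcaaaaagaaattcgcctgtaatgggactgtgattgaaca
Eif2d: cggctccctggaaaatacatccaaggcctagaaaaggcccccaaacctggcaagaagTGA

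A further pair of probes shows how close designs can read differently. Eif4g2, a relative of the eIF4G scaffold that lacks the binding site of the cap-binding protein, has 4 probes, 2 of which overlap by 53 bases on rn4 (chr1:168833093-168833152 and chr1:168833100-168833159) and differ at the 4 bases in capitals.
Eif4g2, first design: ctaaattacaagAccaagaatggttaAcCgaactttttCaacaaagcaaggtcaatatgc
Eif4g2, second design: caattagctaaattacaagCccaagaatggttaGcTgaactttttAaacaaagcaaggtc
The first design was above background on 17 of 24 arrays, and the second on 1 of 24. The brightest Eif4g2 probe, used below, lies elsewhere in the gene.

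Of the 53 genes, 34 had a brightest probe above background in Cy3 on all 24 arrays. These were most of the eIF3 subunits and of the cap-binding and unwinding factors, together with the eIF2 subunits Eif2s1 and Eif2s3x. The brightest probe was above background on 0 of 24 arrays for Eif2b1, a regulatory subunit of eIF2B, for Eif4e1b, a germ-cell relative of the cap-binding protein, and for Eif5a2, a relative of Eif5a. Genes entered the test if 1 group or more had the probe above background on its 4 arrays, which kept 45 genes on the 16 arrays and 48 on all 24. Just inside this limit was Eif1b, above background on 12 of 24 arrays but on 4 of 4 in LPS-G1. Just outside it on the 16 arrays were the double-stranded-RNA kinase Eif2ak2 (10 of 24), the eIF2 beta subunit Eif2s2 (10 of 24), the amino-acid-sensing kinase Eif2ak4 (14 of 24) and Eif1a (13 of 24). Eif2s2, Eif2b1, Eif2b4, Eif4e1b and Eif5a2 were tested in no comparison.

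When the LPS-G1 group was compared with LPS-G0, which asks what the high-molecular-weight diet did in rats given LPS, transcripts of Eif1b and Eif1ad were up-regulated and those of Eif2d were down-regulated. These were 3 of 45 initiation factors (6.67%) at an adjusted p under 0.05 by limma, while 8.93% of all 10313 probes tested passed, so the share was near the background. Of the 3, 2 rose and 1 fell, and of all probes 0.543% rose and 8.39% fell. Among these 3 only Eif1b changed by 2-fold or more, as did 0.989% of all probes. At an unadjusted p under 0.05 there were 7 of 45 (15.6%) beside 26.9% of all probes. The 5 genes Eif1b, Eif1ad, Eif2b3, Eif4e and Eif4enif1 passed the filter only through LPS-G1, so a higher value there was built into their selection, and Eif2d was above background on all 24 arrays.

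Eif1b, a near copy of the start-codon selection factor Eif1, had log2 ratios of -0.73, -0.92, -0.21 and -0.76 in LPS-G0 and of 0.19, 0.34, 0.18 and 0.86 in LPS-G1. Every LPS-G1 array was above every LPS-G0 array. The log2 change was 1.05 (standard error 0.25, n = 4 per group, limma adjusted p = 0.0289). The probe was above background on 0 of 4 LPS-G0 arrays. By the mean log2 Cy3 signal it was 1.95-fold higher in LPS-G1 than in LPS-G0, which is a measured difference near background and no lower limit. The size depended on the background correction, as with normexp and loess, which add an offset of 50 to every signal, the change of Eif1b was 0.21 (limma adjusted p = 0.214). The other groups lay between: the mean was -0.32 ± 0.40 (SD, n = 4) in C-G0, 0.14 ± 0.29 in C-G1, -0.31 ± 0.57 in C-G2 and -0.52 ± 0.43 in LPS-G2. Values in the saline rats of each diet overlapped those of the LPS rats on the same diet.

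Eif1ad, an eIF1A-domain protein, read -0.64, -0.50, -0.50 and -1.28 in LPS-G0 and -0.11, -0.24, -0.02 and 0.22 in LPS-G1. The groups did not overlap, and the log2 change was 0.69 (standard error 0.21, limma adjusted p = 0.0496). Its probe was above background on 2 of 4 LPS-G0 and on 4 of 4 LPS-G1 arrays, and with normexp and loess the change of Eif1ad was 0.31 (limma adjusted p = 0.0688). In LPS-G2 it stood at -0.71, -0.48, -0.66 and -0.67, overlapping LPS-G0.

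Eif2d, which can deliver tRNA to the ribosome without GTP and acts in reinitiation, read 0.35, 0.22, 0.49 and 0.61 in LPS-G0 and 0.05, -0.12, -0.45 and -0.11 in LPS-G1. All LPS-G0 arrays were above all LPS-G1 arrays. Its level fell by 0.58 on the log2 scale (standard error 0.17, limma adjusted p = 0.0434). In C-G0 it read 0.26, -0.42, -0.18 and 0.07, with replicate 1 alone inside the range of LPS-G0, and there the LPS-G0 minus C-G0 change was 0.49 (standard error 0.17, limma adjusted p = 0.227). For LPS-G2 minus LPS-G0 the change was -0.43 (limma adjusted p = 0.597). These comparisons share the LPS-G0 arrays.

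**Figure D1:**
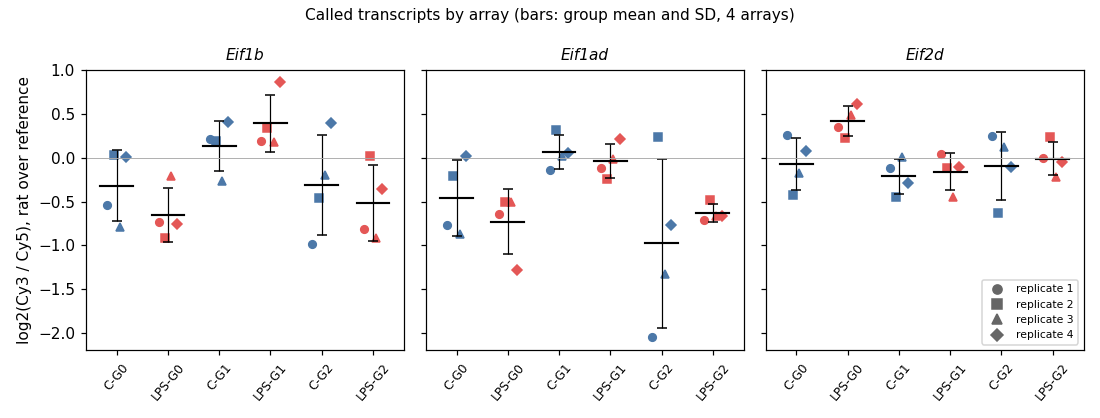
The log2 ratio of Eif1b, Eif1ad and Eif2d on each of the 24 arrays by group (blue, saline; red, LPS; marker shapes, replicates), with the mean and SD of 4 arrays. LPS-G1 lies wholly above LPS-G0 for Eif1b and Eif1ad and wholly below it for Eif2d.

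The 3 calls were close to the threshold. With slide as a block Eif1b alone was called (limma adjusted p = 0.0499, against 0.078 for Eif1ad and 0.0739 for Eif2d). Within the 3 slides, LPS-G1 minus LPS-G0 was 1.01, 0.47 and 1.62 for Eif1b, 0.46, 0.37 and 1.5 for Eif1ad, and -0.24, -0.77 and -0.72 for Eif2d, each with 1 or 2 arrays a group. Without LPS-G0 replicates 3 and 4 none of the 3 was called, at log2 changes of 1.22, 0.53 and -0.44 and limma adjusted p of 0.127, 0.232 and 0.267 for Eif1b, Eif1ad and Eif2d. Beside them 0% of all probes passed, and the median over the 45 tested went from 0.20 to 0.18. None was called either when LPS-G0 replicate 1, 2 or 4 or LPS-G1 replicate 2, 3 or 4 was left out. Without C-G0 replicate 1, which enters through the shared spread, 5 were called, with Eif4a3 and Eif4enif1 added, beside 18.8% of all probes. Without a filter on dim probes, or from the Cy3 channel alone, 0 were called.

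Of the factors of start-codon selection and subunit joining, Eif1, Eif1l1, Eif1ax, Eif5 and Eif5b did not pass the test. Eif1 read 0.10, 0.00, 0.19 and 0.05 in LPS-G0 and -0.52, -0.24, -0.12 and -0.24 in LPS-G1. The arrays did not overlap, and the log2 change of -0.37 (standard error 0.19) missed the threshold with a limma adjusted p of 0.227. The Eif1l1 probe maps 232 bases from the Eif1 probe on rn4 (chr10:89257262-89257321 and chr10:89257554-89257613), so which of these genes it read is uncertain, and its change was 0.00 (limma adjusted p = 0.997). Eif5, the partner of eIF2 that triggers GTP hydrolysis at the start codon, changed by 0.41 (limma adjusted p = 0.137). Eif5b, the subunit-joining GTPase, changed by -0.01.

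Most subunits of eIF3 were higher in LPS-G1 than in LPS-G0, by amounts that did not pass the test for any of the 13. Over the 11 eIF3 subunits above background on all 24 arrays, 10 were higher in LPS-G1 than in LPS-G0, with a median log2 change of 0.32. All 34 such initiation factors had a median of 0.22, with 26 higher (76.5%), and the 7074 probes of the same kind a median of 0.07, with 57.9% higher. By limma 0 of 13 were called, and 0 of 13 had an unadjusted p under 0.05. On single arrays, the median over the 13 subunits was -0.21, -0.20, -0.19 and -0.26 in LPS-G0. It was 0.03, 0.12, -0.07 and 0.11 in LPS-G1 and -0.03, -0.13, -0.07 and -0.04 in LPS-G2, so that all 8 arrays of the diet groups lay above all 4 LPS-G0 arrays. In C-G0 it was -0.51, 0.11, 0.02 and 0.11, and the low value was that of replicate 1. It was -0.08, 0.26, 0.02 and 0.03 in C-G1 and -0.19, -0.11, 0.05 and 0.12 in C-G2. In C-G1 vs. C-G0, 10 of the 11 bright subunits were higher too, with a median of 0.22. In C-G2 vs. C-G0, 6 of the 11 were higher, with a median of 0.01.

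Among single subunits, Eif3a, the scaffold of the complex, changed by 0.36 (standard error 0.19, limma adjusted p = 0.233). Eif3c, Eif3f and Eif3m were without overlap between the groups, with log2 changes of 0.19, 0.28 and 0.30. Eif3e stood at -0.21 (limma adjusted p = 0.503) and Eif3j at -0.00, and these were the 2 subunits that were not higher. Eif3i, counted among the bright subunits above, changed by 0.32 (limma adjusted p = 0.254). Its probe is annotated at rn4 chr2:145735536-145735595, while the gene start used for its promoter below lies on GRCr8 chromosome 5. Which locus the Eif3i probe read is therefore uncertain. In all, 9 of 45 initiation factors had LPS-G1 and LPS-G0 arrays that did not overlap, 7 of them higher in LPS-G1, beside 21.9% of all probes (7.3% higher). These 9 include Eif1b and Eif1ad, which passed the filter through LPS-G1 alone.

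**Figure D2:**
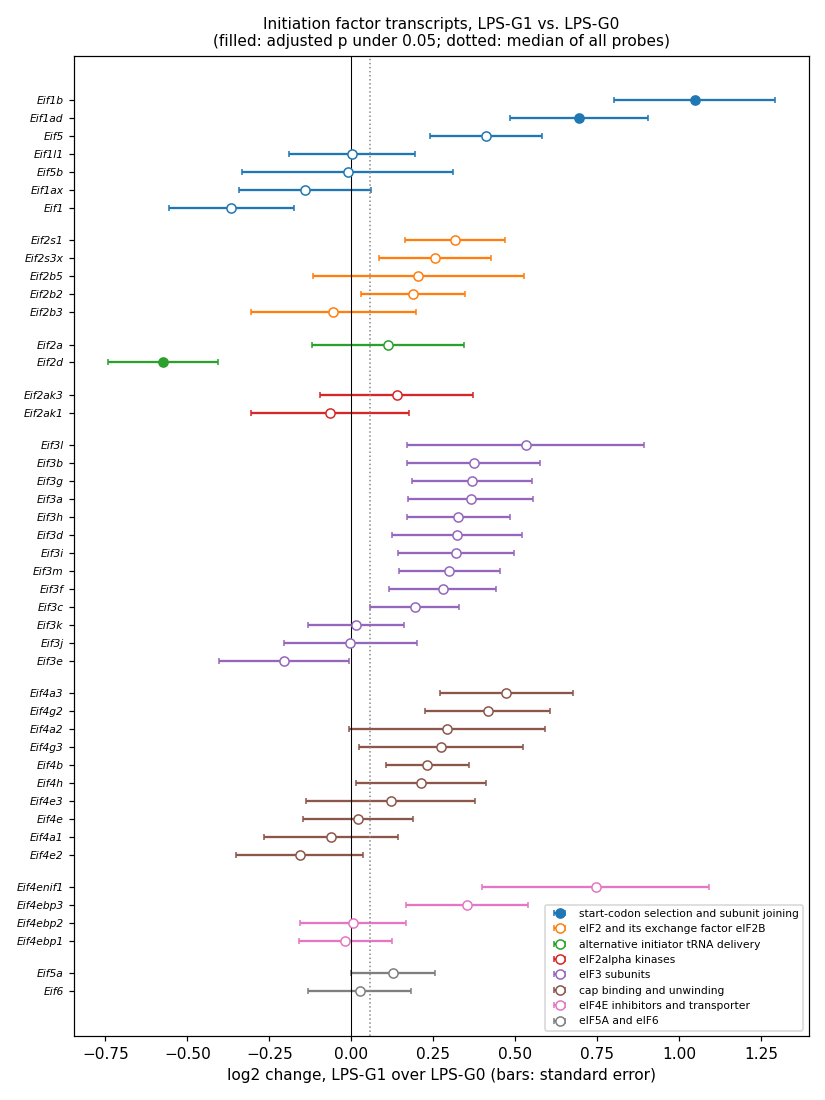
The log2 change of each of the 45 initiation factors tested in LPS-G1 vs. LPS-G0 with its standard error, grouped by role (colours). The 3 filled points passed the adjusted test, and most eIF3 subunits sit to the right of the dotted median of all probes, at 0.06.

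Among the factors that bind and unwind the mRNA, the largest non-overlapping change was that of Eif4a3, the DEAD-box helicase of the exon junction complex. As for eIF3, among the LPS groups the median over the tested factors of this role was lowest on the LPS-G0 arrays (-0.31 to -0.14). It ran from -0.01 to 0.13 in LPS-G1 and from -0.125 to 0.18 in LPS-G2, without overlap with LPS-G0. In C-G0 it ran from -0.45, on replicate 1 and below every LPS-G0 array, to 0.17. In C-G1 it ran from 0.02 to 0.37 and in C-G2 from -0.07 to 0.20. Eif4a3 read -0.22, -0.33, -0.14 and -0.32 in LPS-G0, 0.25, 0.35, 0.10 and 0.19 in LPS-G1 and 0.20, 0.10, 0.22 and 0.20 in LPS-G2. Both diet groups were above LPS-G0 on every array, with log2 changes of 0.47 (limma adjusted p = 0.147) and 0.43 (limma adjusted p = 0.597). The helicases of the cap complex, Eif4a1 and Eif4a2, changed by -0.06 and 0.29 in LPS-G1 vs. LPS-G0, and the second Eif4a1 probe by 0.35, so that the 2 probes of Eif4a1 differed in sign. The cap-binding protein Eif4e changed by 0.02 and Eif4g2 by 0.42 (limma adjusted p = 0.171). Of the inhibitors of Eif4e, Eif4ebp1 and Eif4ebp2 changed by -0.02 and 0.00, and Eif4ebp3 by 0.35 (limma adjusted p = 0.234). Eif4enif1, which carries Eif4e into the nucleus, changed by 0.75 (standard error 0.35, limma adjusted p = 0.177).

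No member of the eIF2 branch was called. The alpha subunit Eif2s1 changed by 0.32 (limma adjusted p = 0.194), Eif2s3x by 0.26 and Eif2b5, the catalytic subunit of the exchange factor, by 0.20. Of the kinases, Eif2ak1 changed by -0.06 and Eif2ak3, the kinase of the endoplasmic reticulum, by 0.14. Eif5a, which acts in elongation, changed by 0.13, and Eif6, which keeps the large subunit from joining too early, by 0.03.

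The promoters were read for a shared letter string. RefSeq sequences on GRCr8, from 250 bases before to 50 after the annotated gene start, were matched for 48 of the 53 genes. TTCCGG on either strand (TTCCGG or CCGGAA), letters chosen after these starts had been read, occurred in 26 of the 48 (54.2%) and in 7 of 11 eIF3 genes. It occurred in 28.8% of the 5120 other genes tested in blood and in 16.5% of all genes with a promoter sequence. Because the letters were chosen after the members' starts had been read, these shares are no test of an excess in the members. Windows of 30 bases from 3 eIF3 genes, with the string in capitals, are shown because in these genes it lies near the gene start.
Eif3i, chr5:147226900-147226929, minus strand: gccccagtcttcTTCCGGtcctactcacat
Eif3k, chr1:93397477-93397506, minus strand: cgtttctttttcTTCCGGtccttgagtact
Eif3m, chr3:111897165-111897194, minus strand: gtaccgctccttTTCCGGtcggcgtggttc
The median log2 change in LPS-G1 vs. LPS-G0 was 0.19 for the 21 tested genes with the string and 0.21 for the 19 without it.

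To ask what LPS did on the control diet, LPS-G0 was set against C-G0, and here limma called 0 of 45 initiation factors (0.0097% of all probes). At an unadjusted p under 0.05 there were 2 of 45, Eif2d and Eif4ebp2, beside 15.2% of all probes, and the analysis of variance with Tukey's test of the study's methods gave 2 before adjustment, Eif2d and Eif4b, beside 5.35% of all probes, and 0 after it beside 0.0097%. Eif4ebp2, a repressor of Eif4e, read 0.65, 0.39, 0.23 and 0.19 in C-G0 and 0.10, -0.35, 0.15 and -0.15 in LPS-G0. The groups did not overlap, as for 5.03% of all probes, and the log2 change was -0.43 (standard error 0.16, limma adjusted p = 0.251). Of the 34 initiation factors above background everywhere, 8 were higher in LPS-G0 (23.5%, against 50.4% of such probes), and the median was -0.11. The C-G0 replicate 1 array bore on this comparison: without it 4 initiation factors were called, namely Eif2d higher and Eif3a, Eif4enif1 and Eif5b lower, beside 11.1% of all probes, and the median over the 45 tested went from -0.11 to -0.24. Without LPS-G0 replicates 3 and 4, 0 were called, 1 had an unadjusted p under 0.05 beside 9.22% of all probes, and the median stayed at -0.11. Markers of NK and cytotoxic cells moved as well, with 6 of 6 tested genes at an unadjusted p under 0.05 and a median log2 change of 0.98. Their median ratio ranged from -1.55 to -0.06 in C-G0 and from -0.05 to 0.63 in LPS-G0, and neutrophil markers were lower, 0 of 5 higher with a median of -0.55. The part of these cells in the result was not tested.

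In LPS-G2 vs. LPS-G0, which asks the same of the low-molecular-weight diet, limma called 0 of 45 initiation factors and 0% of all probes. There were 3 at an unadjusted p under 0.05, namely Eif4ebp1, Eif4a3 and Eif2d, beside 8.23% of all probes, and the methods' test gave 1 before adjustment beside 1.56% of all probes and 0 after it beside 0%. Without LPS-G0 replicates 3 and 4, 0 were called, 0 had an unadjusted p under 0.05 beside 4.52% of all probes, and the median over the 45 tested went from 0.14 to 0.11. Eif4ebp1, a repressor of Eif4e under the control of mTORC1, read 0.03, -0.26, -0.25 and -0.42 in LPS-G0 and 0.05, 0.12, 0.25 and 0.23 in LPS-G2. The groups did not overlap, as for 3 of 45 initiation factors and 10.5% of all probes, and the log2 change was 0.39 (standard error 0.14, limma adjusted p = 0.597). Of the 11 eIF3 subunits above background everywhere, 10 were higher in LPS-G2, with a median of 0.16, and Eif3c did not overlap, at 0.20. Outside these 11, Eif3e (above background on 23 of 24 arrays) was lower, at -0.38 (limma adjusted p = 0.597). Eif3l (18 of 24) was higher, at 0.65 (limma adjusted p = 0.604). Neutrophil markers were higher in LPS-G2 too, 4 of 5 at an unadjusted p under 0.05 with a median of 0.65, and their part in the result was not tested.

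The 2 diets were also set against each other in rats given LPS. In LPS-G1 vs. LPS-G2 limma called 0 of 45 initiation factors and 0% of all probes, with 3 of 45 at an unadjusted p under 0.05 beside 6.68% of all probes. Eif1b (0.91), Eif1ad (0.59) and Eif3m (0.29) were higher in LPS-G1 without overlap (6.65% of all probes did not overlap), each at a limma adjusted p of 0.679. Eif1b and Eif1ad had passed the filter only through LPS-G1, and with normexp and loess their changes were 0.15 and 0.29. Eif4ebp1 changed by -0.41, and its arrays overlapped.

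In the saline rats, the lowest adjusted p of an initiation factor was that of Eif2ak1. In C-G1 vs. C-G0 limma called 0 of 48 (0.028% of all probes), with 8 of 48 (16.7%) at an unadjusted p under 0.05 beside 27.9% of all probes. Eif2ak1 read 0.58, 0.30, 0.29 and 0.06 in C-G0 and -0.16, -1.0, -0.90 and -0.27 in C-G1. All C-G1 arrays were below all C-G0 arrays, as 3 of 48 initiation factors and 7.04% of all probes had no overlap, and the log2 change was -0.89 (standard error 0.24, limma adjusted p = 0.104). Red cell markers moved with it: 10 of 11 tested were lower in C-G1, 5 of them at an unadjusted p under 0.05, with a median of -0.64. Their median ratio ranged from -1.28 to -0.10 in C-G1 and from -0.29 to 0.30 in C-G0, and the lowest was that of C-G1 replicate 2, which also had the lowest Eif2ak1. Markers of dividing cells were lower as well, 0 of 5 higher and 3 at an unadjusted p under 0.05, with a median of -1.09 and ratios from -1.81 to -0.14 in C-G1 and from -0.13 to 0.59 in C-G0. The part of both in the result was not tested. In the same comparison Eif1a and Eif2s1 were higher in C-G1 without overlap, at 0.74 (limma adjusted p = 0.163) and 0.41 (limma adjusted p = 0.136). Eif1a, Eif2ak2 (0.39) and Eif2ak4 (0.84) passed the filter only through C-G1, so a higher value there was built into their selection. Over the 34 initiation factors above background on all 24 arrays the median was 0.15. With normexp and loess Eif1a was at 0.13 (limma adjusted p = 0.472).

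Single C-G0 arrays moved this comparison. Without C-G0 replicate 4, 2 were called, namely Eif2ak1 and Eif4a3, beside 8.99% of all probes. Without C-G0 replicate 1, 0 were called beside 0% of all probes, and 3 of 48 had an unadjusted p under 0.05 beside 10.4%. Eif2ak1 was then at -0.80 (limma adjusted p = 0.449), Eif2s1 at 0.26 (limma adjusted p = 0.505) and the median of the 48 at 0.05 in place of 0.19.

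**Figure D3:**
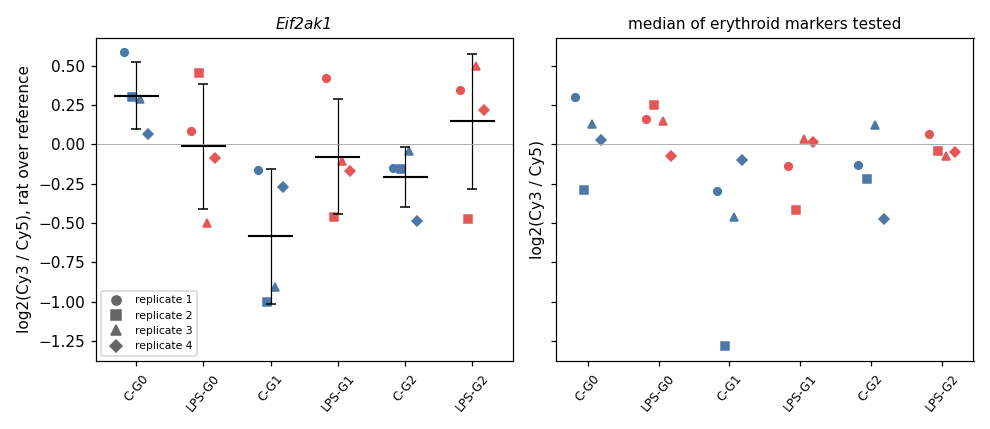
The log2 ratio of Eif2ak1 on each of the 24 arrays, with the group mean and SD (left), and the median ratio of the 11 red cell markers tested on the same arrays (right), in blue for saline and red for LPS. Eif2ak1 is lower on all C-G1 than on all C-G0 arrays, and the lowest array of both panels is C-G1 replicate 2.

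In C-G2 vs. C-G0, limma called 0 of 48 initiation factors (0.028% of all probes) and 5 had an unadjusted p under 0.05 beside 13.3% of all probes. Eif3j, a loosely bound subunit of eIF3, read 0.50, 0.48, 0.95 and 0.23 in C-G0 and 0.01, 0.12, -0.32 and -0.56 in C-G2, without overlap, as for 4 of 48 initiation factors, all lower, and 2.62% of all probes. The log2 change was -0.73 (standard error 0.20, limma adjusted p = 0.174), and without C-G0 replicate 4 it alone was called, beside 3.3% of all probes. A second, dimmer Eif3j probe, above background on 17 of 24 arrays, gave -0.25, and the mean of both probes -0.49 (limma adjusted p = 0.416). Without C-G0 replicate 1, 0 of 48 were called, 4 had an unadjusted p under 0.05 beside 12.8% of all probes, and the median went from 0.00 to -0.11. Eif2ak1 stood at -0.52 (limma adjusted p = 0.355), Eif1l1 at -0.46 (limma adjusted p = 0.326) and Eif4ebp2 at -0.40 (limma adjusted p = 0.294). Both comparisons of saline rats share the C-G0 arrays, which differed most among themselves, with a median SD of the initiation factors of 0.34.

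On the beta-glucan diets no initiation factor passed the test between LPS and saline rats. In LPS-G1 vs. C-G1 limma called 0 of 48 initiation factors (0.00934% of all probes), and 1, Eif2ak1 at 0.51, had an unadjusted p under 0.05 beside 2.81% of all probes. Red cell markers were higher in LPS-G1 too, 10 of 11 with a median of 0.48 and none at an unadjusted p under 0.05, and their part in the value of Eif2ak1 was not tested. Eif2ak2 did not overlap (2.73% of all probes), at -0.44 (limma adjusted p = 0.950), and was above background on 4 of 4 C-G1 and 1 of 4 LPS-G1 arrays. It was tested only through C-G1, so a lower value elsewhere was built into its selection, and with normexp and loess it was at -0.15. In LPS-G2 vs. C-G2 there were 0 of 48 called and 0% of all probes, and 0 at an unadjusted p under 0.05 beside 1.09%, with 0 without overlap beside 1.07%. The difference between the LPS effects on 2 diets was tested directly: G1 minus G0 gave 0 of 48 called (0% of all probes) and 1 at an unadjusted p under 0.05 (3.01% of all probes), Eif2ak1 at 0.83 (limma adjusted p = 0.999). G2 minus G0 gave 0 of 48 (0%) and 2 at an unadjusted p under 0.05 (5.57%), Eif3j at 0.68 and Eif4e at -0.55 (limma adjusted p = 0.832 for both). Without C-G0 replicate 1, 0 were called in either, and the medians of the 48 went from 0.04 to 0.21 and from 0.10 to 0.26. Without LPS-G0 replicates 3 and 4, 0 were called in either, and the medians were 0.04 and 0.09.

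**Figure D4:**
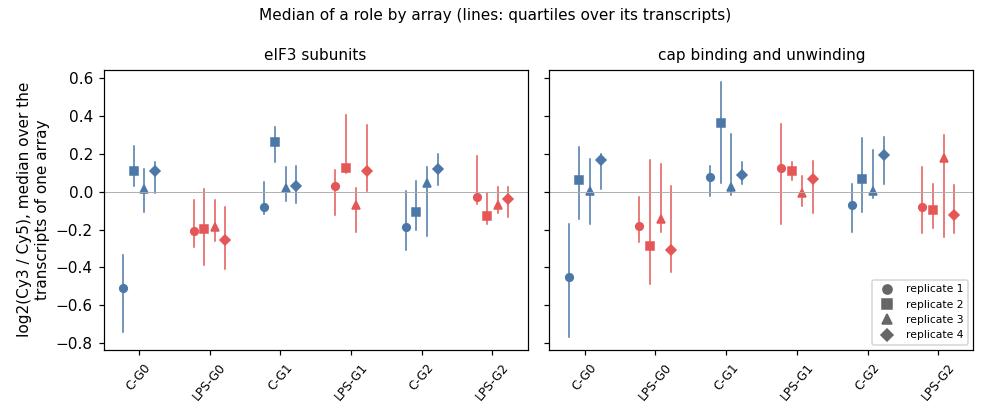
The median log2 ratio over the 13 eIF3 subunits (left) and the 10 cap-binding and unwinding factors (right) on each array, with quartiles over the transcripts as lines, in blue for saline and red for LPS. The LPS-G0 arrays lie below all LPS-G1 and LPS-G2 arrays in both panels, and C-G0 replicate 1 is the lowest array in both.

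**Figure D5:**
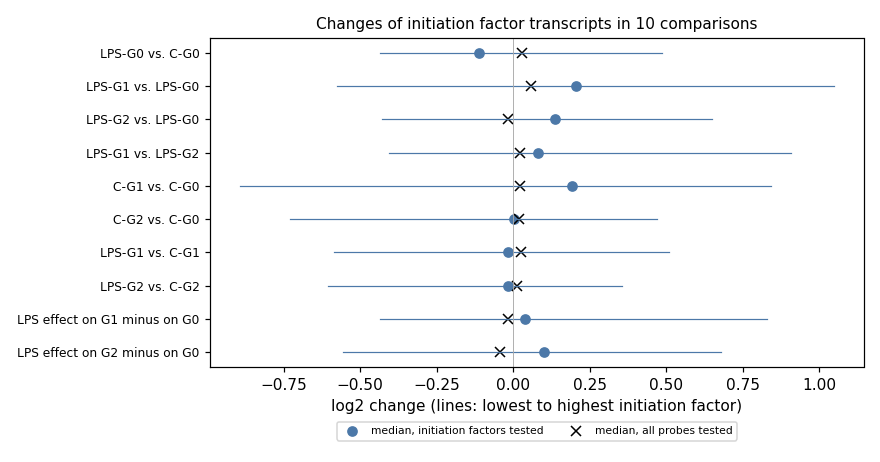
The median log2 change of the initiation factors tested in each of the 10 comparisons (blue points, with lines from the lowest to the highest) beside the median of all probes (crosses). In C-G1 vs. C-G0 the medians are 0.19 and 0.02, and without C-G0 replicate 1 that of the initiation factors is 0.05. There Eif1a, Eif2ak2 and Eif2ak4, the top of the line, passed the filter only through C-G1. Over the 34 factors above background on all 24 arrays the median is 0.15. The comparisons with C-G0 or LPS-G0 share those arrays.

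Genes of the pathway outside the Eif names were counted from 4 lists. In LPS-G1 vs. LPS-G0, 1 of 9 tested genes of cap-binding control by mTORC1 and MNK fell, namely Mknk1, a kinase of eIF4E, by 0.72 on the log2 scale (limma adjusted p = 0.0393), where 8.39% of all probes fell. Of these 9 genes 6 were higher, with a median of 0.16. Of 8 tested genes of the integrated stress response, which follows eIF2 phosphorylation, 1 fell, beside the same 8.39% of all probes. This was Asns, the asparagine synthetase, which fell by 0.84 (limma adjusted p = 0.0289). Of the 8 genes 3 were higher, with a median of -0.18. None of 10 scanning and start-codon partners and none of 10 elongation and termination factors was called, with medians of 0.23 and 0.26. In the same comparison markers of dividing cells fell, 2 of 5 called (Ube2c at -2.5 and Tpx2 at -1.68 on the log2 scale). Their median ratio ranged from 0.46 to 0.85 in LPS-G0 and from -0.81 to 0.08 in LPS-G1. Of 11 red cell markers 2 were called, Klf1 falling by 0.81 and Epb42 by 0.93, but 4 of the 11 were higher and the median was -0.20. The part of dividing cells and red cells in the initiation factor values was not tested.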

How the data were processed

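Whole blood RNA of 24 rats was hybridised on 2-colour arrays of 62976 spots. The authors used Agilent Feature Extraction (10.10.1.1 in the file headers, 10.7.3.1 in the labels). It subtracted background and balanced the dyes, and the deposited files give processed intensity per channel and the log10 ratio of Cy5 over Cy3. By the labels Cy3 held the rats' RNA, and by the study's methods Cy5 did. The Cy3 channel varied more within groups on the log2 scale (median SD 0.383 against 0.257 over 7074 probes) and on all 24 arrays, so minus the log10 ratio, as log2, was used. Array correlations over all probes ran from -0.158 to 0.471, and over the tested probes from -0.54 to 0.612.

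Control spots and outlier spots were dropped and spots of a probe averaged. Probes above background on all arrays of a group were tested (10313 on 16 arrays, 10708 on 24) with limma 3.58.1 in R 4.3.3, two-sided, with Benjamini-Hochberg adjustment over all of them. The LPS comparisons on 16 arrays follow the study's 4 groups. The fit was tested on simulated data. Between 7786 and 15385 probes an array were above background in Cy3, and 4 arrays a group limit the precision. Each array held another rat. Replicate numbers were not used as pairs, since the correlation of same-numbered arrays averaged 0.111 with no comparison above 0.1 in every pair.

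The members and gene lists were chosen with earlier results of these data known. Named genes are those called in a comparison, up to 3 a direction without overlap in a comparison, a list of core factors by role, and those next to the filter. Eif3f, Eif4ebp3, Eif4enif1 and the genes of the promoter windows were chosen after their values were seen. Promoters were matched by symbol or synonym. Eif4g1 was not analysed here.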

Additional observations from a re-analysis of the deposited data

Results flagged for a closer look

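For 29 named initiation factors the 6 groups of 4 arrays were searched for an array far from the other 3, and 14 of 174 groups held one, where chance flags about 1 in 20. On C-G0 replicate 1 this was so for Eif2s1 (-0.60, the others -0.04 to 0.06), Eif3a (-0.74), Eif3c (-0.39), Eif4a1 (-0.37) and Eif6 (-0.36), all low. On C-G1 replicate 2, Eif1a (0.59) and Eif2s3x (0.51) were high. In C-G2, Eif2ak3 on replicate 1 (-1.12) and Eif2ak2 on replicate 3 (-0.59) were low, and Eif2ak2 was also low on C-G1 replicate 3 (0.48, the others 0.61 to 0.63). In the LPS groups, Eif1 on LPS-G2 replicate 3 (-0.79), Eif3a on LPS-G2 replicate 1 (-0.41), Eif1l1 on LPS-G1 replicate 1 (-0.47) and Eif2b5 on LPS-G0 replicate 4 (-0.24) were low.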

How the results depend on the processing

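The count of initiation factors called was recomputed under 13 other settings and without single arrays, and the log2 change of no gene tracked across them changed sign. In LPS-G1 vs. LPS-G0, 3 were called beside 8.93% of all probes. The count was 1 with normexp and loess (Eif2d, beside 11.2% of all probes), 1 with probes above background on every array (Eif2d, 11.4%) and 1 with the slide block (Eif1b, 3.26%). It was 0 from the Cy3 channel alone (0%), 0 without a filter on dim probes (0%), 0 with all 24 arrays in the fit (0.028%), 0 without both LPS-G0 arrays whose labels conflict (0%) and 0 with the analysis of variance and Tukey's test (0.0097%), which gave 3 before adjustment (12% of all probes). It was 12 with array weights, 11 of them higher, beside 27.6% of all probes. Leaving out 1 array gave 0 to 5, with 0 without LPS-G0 replicate 1, 2 or 4 or LPS-G1 replicate 2, 3 or 4, and 5 without C-G0 replicate 1 (18.8% of all probes), a setting added after the data were seen. In LPS-G0 vs. C-G0, where 0 were called, array weights gave 2 (Eif2d and Eif5b, beside 11.1% of all probes), and leaving out 1 array gave 0 to 4, the 4 without C-G0 replicate 1. With the replicate number as a block, 1 was called in C-G1 vs. C-G0 (Eif2ak1, beside 5.6% of all probes) and 1 in C-G2 vs. C-G0 (Eif3j, beside 0.402%), and leaving out 1 array gave 0 to 2 and 0 to 1 there, the highest without C-G0 replicate 4. Each array held another rat, so this block is no pairing. The numbers partly follow the slides, since all replicate 1 arrays shared 1 slide and all replicate 4 arrays another. The replicate block and the slide block therefore overlap in part. Normexp and loess shrank the changes of dim probes. In LPS-G1 vs. LPS-G0, Eif1b went from 1.05 to 0.21 and Eif1ad from 0.69 to 0.31. Eif1a went from 0.74 to 0.13 in C-G1 vs. C-G0, and Eif2ak2 from -0.44 to -0.15 in LPS-G1 vs. C-G1. The cause of the other differences was not tested. With 4 arrays a group, signals near background limit what can be told.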
